A study of Mus musculus with 6 samples.

Results

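Cycling CD8 T cells of the normal mouse kidney were taken from the control CD8 library as the cell barcodes with at least 500 detected genes, at most 20% mitochondrial UMIs, at least 1 UMI summed over Cd3d, Cd3e and Cd3g, and at least 3 UMIs summed over Mki67, Top2a, Birc5 and Pclaf. A UMI (unique molecular identifier) counts 1 captured RNA molecule, and the sum over these 4 genes is called rule UMIs here. The barcodes were thus selected on measured counts of these genes. The rule found 620 barcodes among the 9685 Cd3 barcodes of the library, a share of 6.40% (95% exact binomial interval 5.92 to 6.91%). The library held 10885 barcodes and the series 54039. The remaining 9065 Cd3 barcodes of the same library, with fewer than 3 rule UMIs, are the comparison group and are called the other Cd3 barcodes.

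The series profiled T cells from male wild-type C57BL/6J mice, 7 to 8 weeks old. The kidneys came from normal animals (control group) or had been made ischemic by clamping both renal pedicles for 30 min followed by reperfusion (IR group). Live CD45+ cells with an αβ T cell receptor were separated by flow cytometry into CD4 cells, CD8 cells and cells with neither coreceptor (double negative, DN), which gave 6 libraries by droplet sequencing of transcript 3' ends, 1 for each subset and condition. The number of mice behind a library is not in the labels, and a group of 1 library gives no measure of spread between samples. No p-value is given, and all intervals are 95% intervals that cover counting error only.

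A dividing cell copies its DNA in S phase and separates the copies in mitosis. Genes for licensing of replication origins, DNA synthesis and histones are transcribed mainly around S phase, while cyclin B, mitotic kinases and kinetochore proteins accumulate in G2 and mitosis. Resting T cells hold this program off, and CD8 T cells that meet antigen or growth-promoting cytokines enter it, often with a gain of granzymes and a loss of the receptors that keep naive cells in the circulation. Mki67 encodes a protein that coats mitotic chromosomes, Top2a the topoisomerase that untangles DNA, Birc5 survivin of the chromosomal passenger complex, and Pclaf a partner of the replication clamp PCNA.

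The 4 rule genes lie on mouse genome build mm10 at chr7:135689784-135716361 (Mki67, minus strand), chr11:98992943-99024189 (Top2a, minus strand), chr11:117849251-117855743 (Birc5, plus strand) and chr9:65890237-65903266 (Pclaf, plus strand). The 250 bases before the annotated transcription start (RefSeq, GRCm38.p6) are shown for these genes and for Ccnb2 and Hist1h1b, a mitotic and an S phase gene that the rule did not use. They are shown because promoters of cycle genes commonly carry letters read by cell cycle regulators. Capitals mark every match, on either strand, to TTTGAA (the core of the CHR element, bound by the DREAM complex in resting cells) and to CCAAT (the box bound by NF-Y). The E2F site letters TTTCCCGC and TTTGGCGC were also searched on both strands and had no match in these windows. All sequences run 5' to 3' on the strand of the gene.
Mki67, chr7:135716380-135716629: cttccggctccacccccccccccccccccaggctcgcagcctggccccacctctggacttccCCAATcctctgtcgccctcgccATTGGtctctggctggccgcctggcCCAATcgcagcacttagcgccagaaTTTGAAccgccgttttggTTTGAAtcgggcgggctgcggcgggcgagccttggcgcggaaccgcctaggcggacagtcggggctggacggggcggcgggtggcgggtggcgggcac
Top2a, chr11:99024190-99024439: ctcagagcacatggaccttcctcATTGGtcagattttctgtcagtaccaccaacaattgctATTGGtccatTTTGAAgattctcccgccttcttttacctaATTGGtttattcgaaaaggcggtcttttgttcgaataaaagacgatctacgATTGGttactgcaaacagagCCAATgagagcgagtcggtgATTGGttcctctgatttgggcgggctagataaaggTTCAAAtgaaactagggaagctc
Birc5, chr11:117848987-117849236: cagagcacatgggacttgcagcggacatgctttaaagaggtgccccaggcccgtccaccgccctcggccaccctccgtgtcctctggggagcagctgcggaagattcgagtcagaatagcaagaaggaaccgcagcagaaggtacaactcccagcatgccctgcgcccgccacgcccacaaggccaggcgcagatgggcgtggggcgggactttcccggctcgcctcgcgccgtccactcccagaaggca
Pclaf, chr9:65890073-65890322: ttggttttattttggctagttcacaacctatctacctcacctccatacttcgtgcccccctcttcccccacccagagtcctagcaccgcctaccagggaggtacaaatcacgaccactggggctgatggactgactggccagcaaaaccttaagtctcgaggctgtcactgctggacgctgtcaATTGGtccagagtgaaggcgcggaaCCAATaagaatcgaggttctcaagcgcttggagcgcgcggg
Ccnb2, chr9:70421555-70421804: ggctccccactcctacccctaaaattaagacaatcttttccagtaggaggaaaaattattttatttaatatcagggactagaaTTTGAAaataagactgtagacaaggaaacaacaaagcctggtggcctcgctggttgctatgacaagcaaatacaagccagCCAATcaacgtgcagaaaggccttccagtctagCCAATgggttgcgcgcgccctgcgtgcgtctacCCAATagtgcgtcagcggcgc
Hist1h1b, chr13:21780626-21780875: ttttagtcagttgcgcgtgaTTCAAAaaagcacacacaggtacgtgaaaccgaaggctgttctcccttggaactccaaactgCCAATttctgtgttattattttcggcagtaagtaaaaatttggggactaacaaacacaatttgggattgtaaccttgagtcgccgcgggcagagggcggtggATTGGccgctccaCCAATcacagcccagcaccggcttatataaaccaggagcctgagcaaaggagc

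The upstream window of Mki67 held 2 CHR and 3 CCAAT matches, that of Top2a 2 CHR and 6 CCAAT matches, and that of Pclaf 2 CCAAT matches. The Pclaf window runs past the start of the gene coordinates given above, and both of its matches lie after that start. None of these letters occurred in the window of Birc5. Ccnb2 and Hist1h1b each held 1 CHR and 3 CCAAT matches. In windows of the length shown, the CHR letters occurred in 11.1% of the promoters of genes measured at 50 CPM (counts scaled to a common total) or more in either group of barcodes. They occurred in 26.8% of the promoters of genes at least 2-fold higher in the cycling barcodes and in 34.3% of those of 2 mitosis gene lists. CHR and CCAAT letters stood together in 28.6% of the mitosis promoters, against 4.54% of the promoters of measured genes. The E2F letters occurred in 12.2% of the promoters of the licensing and DNA synthesis lists, against 3.25% of measured genes and 7.14% of the mitosis lists. CCAAT occurred in 84.6% of the histone promoters, against 34.6% of measured genes. The shares depended on the window. When the 50 bases after the start were included, the shares of all 32851 promoters were 17.9% for CHR, 37.4% for CCAAT, 1.56% for E2F and 6.95% for CHR with CCAAT. In these longer windows CHR letters occurred in 61.4% of the mitosis promoters and 37.1% of those of higher genes, against 12.9% of measured genes, CHR with CCAAT in 50% of the mitosis promoters against 5.57%, and E2F letters in 24.5% of the licensing and DNA synthesis promoters against 3.82%. Of the measured genes, 3773 of 4620 matched a promoter. These shares describe letters and not bound sites.

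The cycling barcodes were not shallow. They held a median of 13184 UMIs and 3751 genes, against 6817 UMIs and 2570 genes in the other Cd3 barcodes. Below 2000 UMIs lay 42 of the 620, the lowest with 701 UMIs. The mitochondrial share was alike, with medians of 1.55% and 1.60%, and ribosomal protein genes took 19.1% and 21.4% of UMIs. Among the deepest 5% of the library's barcodes by UMIs, a class that the study set aside as likely doublets, lay 215 of the 620 cycling barcodes (34.7%) and 322 of the other Cd3 barcodes (3.55%). Depth therefore moved with the rule, and values with the deepest 5% left out and with both groups held within the interquartile range of the cycling barcodes (6384 to 21172 UMIs, 310 and 4846 barcodes) are given for the counts over all genes and beside some of the lists and genes. Inside that range, called matched depth below, the medians were still 13184 and 8908 UMIs. Depth was thus brought closer and not made equal. What part depth or doublets had in the results was not tested.

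Some cell barcodes recurred in another library. This held for 50 of the 620 cycling barcodes (8.06%) and 108 of the 9065 others (1.19%). Every one of the 50 recurred in control CD4 or control DN, and 0 recurred in an IR library. Of the 68 cycling barcodes with more than 30000 UMIs, 43 recurred in control CD4 or DN, where the same barcode held 501 to 1061 UMIs, or 1.26 to 2.02% of its count in control CD8. In the opposite direction, the 2 shared cycling barcodes under 1000 UMIs matched deep control DN barcodes, with up to 49001 UMIs. The cause of the shared barcodes was not tested, and values without them are given beside some of the results.

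**Figure D1:**
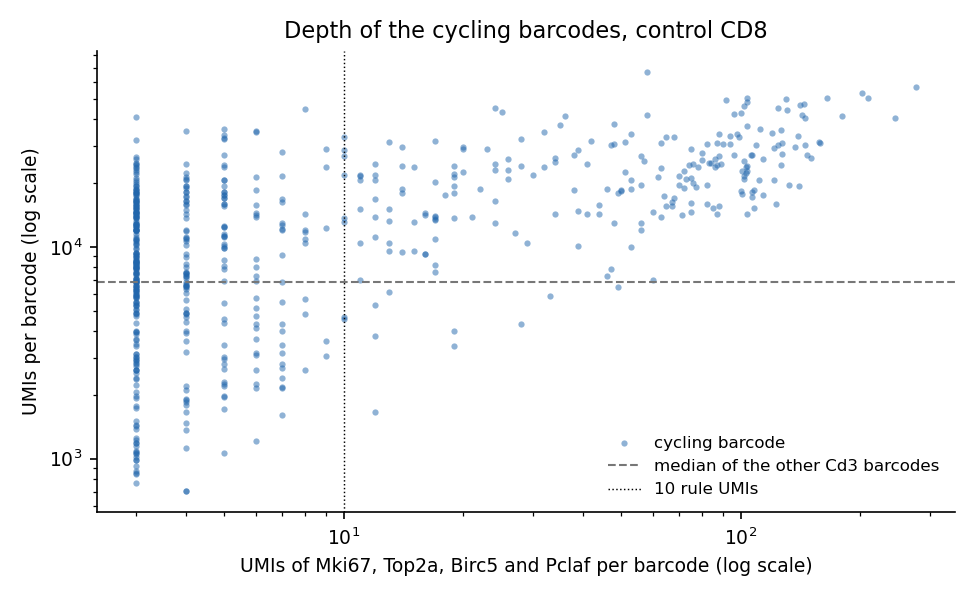
UMIs per barcode (vertical axis, log scale) against rule UMIs (UMIs of Mki67, Top2a, Birc5 and Pclaf, horizontal axis, log scale) for the 620 cycling barcodes of control CD8, with 1 point a barcode. The dashed line is the median of the other Cd3 barcodes (6817 UMIs) and the dotted line marks 10 rule UMIs. Barcodes with 10 or more rule UMIs lie mostly above the dashed line (median 21813 UMIs), while those with 3 rule UMIs spread from 767 to 40888 UMIs.

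The rule genes chose the barcodes, so their values are a description. Top2a had a UMI in 537 of the 620 barcodes (86.6%), Mki67 in 437 (70.5%), Pclaf in 360 (58.1%) and Birc5 in 292 (47.1%). Summed over the cycling barcodes, Top2a stood at 751 CPM against 31.8 in the others, Mki67 at 606 against 12.7, Pclaf at 592 against 4.95 and Birc5 at 346 against 2.44. The highest count in a single barcode was 121 for Mki67, 84 for Top2a, 61 for Pclaf and 35 for Birc5, whereas no other Cd3 barcode can hold more than 2 of any by construction. All 4 genes were found together in 199 barcodes, 3 of them in 122, 2 in 165 and a single one in 134. Of the barcodes with a single rule gene, 106 had Top2a, 25 Mki67, 3 Pclaf and 0 Birc5.

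Rule UMIs were unevenly spread. The 620 barcodes held 86.0% of all 19155 rule UMIs of the library, and the 233 barcodes with 10 or more of them held 14911 of the 16470 in the cycling barcodes. The other 387 barcodes, with 3 to 9 rule UMIs, had a median depth of 8159 UMIs. At the threshold, the 210 barcodes with 3 rule UMIs (just inside) had a median of 8178 UMIs and 2914.5 genes, and the 515 with 2 (just outside) had 7796 UMIs and 2806 genes. Top2a supplied 58.1% of the rule UMIs of the barcodes with 3, but 30.8% of those with 10 or more, where Pclaf supplied 26.8% and Birc5 15.9%. Of the 210 barcodes with 3 rule UMIs, 90 had a single rule gene, 93 had 2 and 27 had 3, whereas 182 of the 233 with 10 or more had all 4.

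The label of the sort held in these barcodes. Cd8a, a chain of the CD8 coreceptor, had a UMI in 582 of 620 (93.9%) and Cd8b1, its partner chain, in 595 (96.0%). In the other Cd3 barcodes these shares were 87.5% and 92.0%. Cd4 had 1 UMI in all 620 barcodes together. The receptor constant chains Trac and Trbc2 had a UMI in 94.7% and 98.4%. In CPM, Cd8a stood at 855 (834 to 877) and 853 in cycling and other barcodes, and the 12 genes of the T cell receptor and CD8 list had log2 ratios between -0.38 and 0.10.

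Over the whole transcriptome, a difference was called where the summed level was at least 50 CPM in 1 of the groups and the groups lay 2-fold or more apart. Of 4620 genes at that level, 234 were higher in the cycling barcodes (5.06%) and 53 were lower (1.15%), and the median log2 ratio of all 4620 was -0.11. In the replication and mitosis program, 6 gene lists that hold no rule gene contributed 115 of the 234 higher genes and 0 of the lower ones. These 6 lists had 126 genes at 50 CPM, with a median log2 ratio of 2.58. A gene far under 50 CPM in the other barcodes, such as Ccnb2 (2.01) or Rrm2 (6.79), is measured only if it is high in the cycling barcodes. Its call is then fixed in advance, and the counts and medians of the lists rest in part on such genes. The summed levels of the 6 lists, which use no minimum, had log2 ratios of 1.67 to 3.04. Outside them 119 genes were higher, among them the 4 rule genes that chose the barcodes. With the deepest 5% of barcodes left out, 110 genes were higher (2.44%) and 27 lower (0.6%), and 72 of 93 genes of the 6 lists were higher, with a median of 1.78. At matched depth 159 were higher (3.5%) and 38 lower (0.836%), and 94 of 110 genes of the 6 lists were higher. Without the shared barcodes 196 were higher (4.28%) and 43 lower (0.939%), and 104 of 115 of the 6 lists were higher. TMM scaling moved the median of all genes up by 0.14 and gave 270 higher (5.88%) and 27 lower (0.588%).

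**Figure D2:**
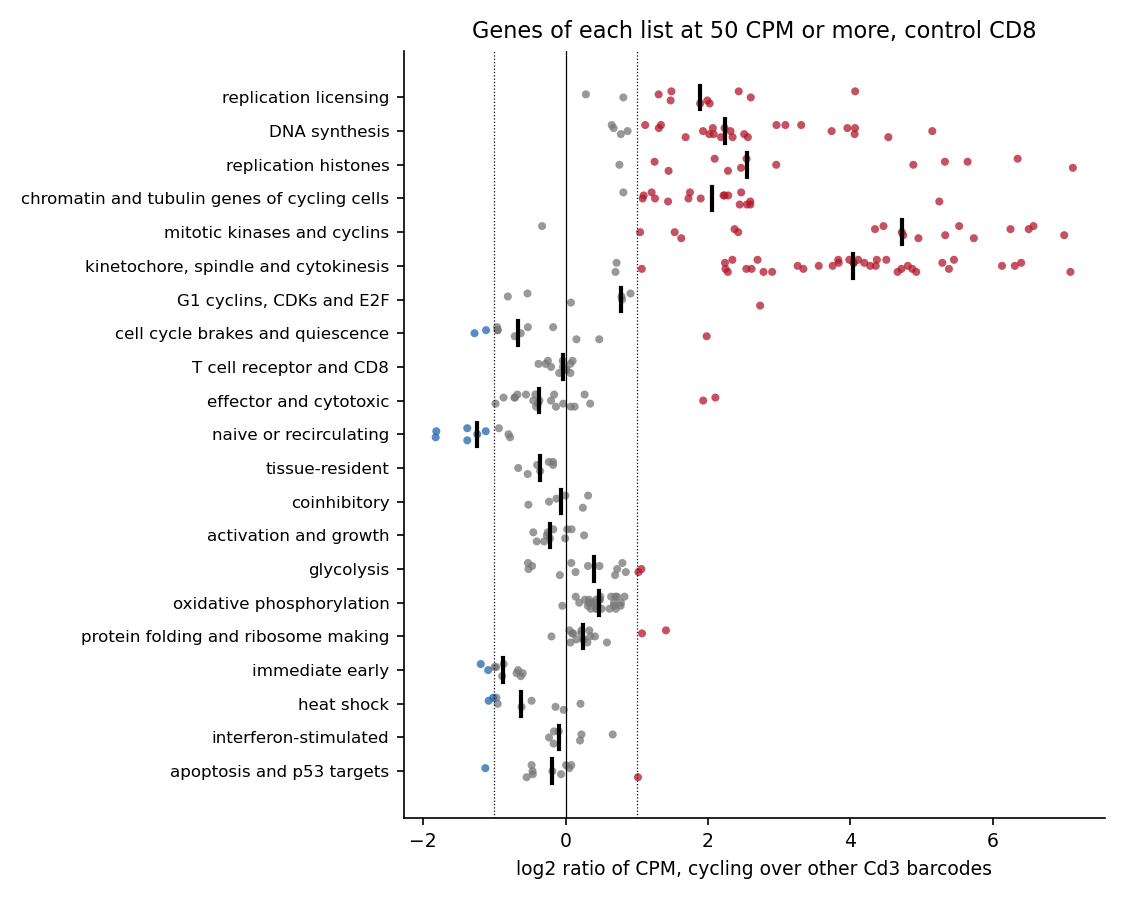
Log2 ratio of summed CPM, cycling over other Cd3 barcodes of control CD8 (horizontal axis), for each gene at 50 CPM or more, by gene list (vertical axis). Points are genes, red at least 2-fold higher, blue at least 2-fold lower and grey between, and black bars are list medians. The 6 replication and mitosis lists lie to the right, with medians from 1.89 to 4.73, and the naive or recirculating list lies furthest left, at -1.24.

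Genes of DNA synthesis were higher in 23 of 27 measured members, with a median log2 ratio of 2.23. Rrm2 (chr12:24708241-24714146, plus strand), the small subunit of ribonucleotide reductase that makes deoxynucleotides, stood at 241 CPM (230 to 253) against 6.79, a log2 ratio of 5.15 that was 4.33 without the deepest 5%. Tk1, thymidine kinase, reached 78.4 against 3.38 CPM, and Tyms, thymidylate synthase, 179 against 21.1. These nucleotide enzymes had ratios above that of Pcna, the replication clamp, which was already at 163 CPM in the other barcodes and reached 354 (log2 1.12, and 0.79 without the deepest 5%). Clspn, a mediator of the replication checkpoint, and Uhrf1, which recruits the maintenance DNA methyltransferase, had log2 ratios of 4.06 and 4.07. Without the deepest 5% of barcodes 14 of 19 genes were higher, with a median of 1.52. The 4 members under 2-fold in all cycling barcodes were Rpa2, Atad2, Slbp and Pola2, at 0.65 to 0.87.

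Replication licensing genes were higher in 9 of 11, with a median of 1.89, which became 5 of 9 and 1.06 without the deepest 5% of barcodes and 8 of 10 and 1.47 at matched depth. The MCM helicase subunits were higher to different extents, from Mcm4 at 158 against 63.9 CPM (log2 1.31) to Mcm5 at 150 against 24.7 CPM (log2 2.60). Mcm4 was just under 2-fold without the deepest 5% (0.97). Cdc45, which joins the MCM ring to form the active helicase, had 54.3 CPM against 3.24. Cdt1 and Dbf4, a loading factor and the activator of the Cdc7 kinase, stood at log2 ratios of 0.29 and 0.81.

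Histone genes gave some of the widest ratios. Of 13 replication histone genes at 50 CPM, 12 were higher, with a median of 2.54, and without the deepest 5% of barcodes 9 of 11 were, with a median of 1.56. The linker histone gene Hist1h1b (chr13:21779883-21780625, minus strand) stood at 1094 CPM (1070 to 1119) against 21.8, a log2 ratio of 5.65 that was 4.32 without the deepest 5%, and Hist1h3c at 365 against 2.61, a log2 ratio of 7.13 that was 5.76 without them. Hist1h2ae reached 726 against 18.1 CPM (log2 5.33, and 3.90 without the deepest 5%), while Hist1h1c, at 265 against 157, did not reach 2-fold. Histone genes of 1 family are near-identical copies, so the split of UMIs between copies is uncertain. Most histone transcripts lack a poly(A) tail, and a poly(A)-primed assay captures part of them.

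Chromatin and tubulin genes were higher in 17 of 18, with a median of 2.06, and in 12 of 17 both without the deepest 5% of barcodes (median 1.32) and at matched depth (median 1.49). Stmn1 (chr4:134468320-134473843, plus strand), which encodes the microtubule-destabilising protein stathmin, went from 28.6 to 1087 CPM, and the DNA-bending protein gene Hmgb2 from 608 to 3676. The tubulin genes Tuba1b and Tubb5 were at 850 and 1624 CPM against 141 and 435. Ptma, for the chromatin protein prothymosin alpha, was abundant in both groups and stood at 4913 against 2056 CPM, a log2 ratio of 1.26 that was under 2-fold without the deepest 5% (0.78) and at matched depth (0.93). Tuba1c was the exception in this list, with a log2 ratio of 0.81.

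Mitotic genes had the highest list medians of the 6 lists, although the summed level differed most for the histones (log2 3.04, against 2.68 for kinetochore and spindle genes and 2.38 for mitotic kinases and cyclins). Of 18 mitotic kinase and cyclin genes, 17 were higher, with a median of 4.73, and without the deepest 5% of barcodes 8 of 10 were, with a median of 3.65. The list held 27 genes, and those under 50 CPM in both groups were not counted. Genes such as Ccnb2, Ccna2 and Cdk1 passed that minimum only through the cycling barcodes, which fixed their calls. Ccnb2 (chr9:70407692-70421547, minus strand), a B-type cyclin that drives entry into mitosis, stood at 191 CPM (181 to 201) against 2.01, and Ccna2, cyclin A, at 115 against 0.898. The kinase gene Cdk1, the partner of both, was at 148 against 5.52 CPM, and Ube2c, which helps to degrade mitotic cyclins, at 317 against 4.16. Pttg1, the securin gene, went the other way at 76.6 against 96.3 CPM (log2 -0.33). Kinetochore, spindle and cytokinesis genes were higher in 37 of 39, with a median of 4.04. They were led by Hmmr (log2 7.09), a spindle assembly factor, and by the kinetochore gene Cenpf (6.40), and the 2 exceptions were Smc4 (0.70), a condensin subunit, and Racgap1 (0.72). Hmmr and Cenpf, at 0.961 and 2.93 CPM in the other barcodes, passed the 50 CPM minimum only through the cycling barcodes, which fixed their calls. Smc4 and Racgap1 stood at 356 and 109 CPM in the other barcodes. Pclaf, Ccna2, Cdc45 and Tk1 overlap genes on the opposite strand, which cannot be told apart from them if strand was not used in counting. The overlapping genes moved far less, from -0.53 for Trip4, beside Pclaf, to 0.33 for Afmid, beside Tk1.

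In the list of G1 cyclins, cyclin-dependent kinases and E2F factors, 1 of 7 measured genes was higher. This gene, E2f2 (50.4 against 7.58 CPM, log2 2.73), no longer reached 50 CPM without the shared barcodes, where its log2 ratio was 2.67. Ccnd3 and Ccnd2, the D-type cyclins of T cells, were at 491 against 862 and 297 against 430 CPM, log2 ratios of -0.81 and -0.53. A further 5 genes of the list reached log2 ratios of 2.10 or more while staying under 50 CPM, namely Ccne1, Ccne2, E2f1, E2f7 and E2f8. E2f8, a repressor that acts late in S phase, was at 35.2 against 0.376 CPM. The count depended on the number of rule UMIs. In the barcodes with 10 or more, 8 of 11 genes of this list were higher and 2 lower (Ccnd2 and Ccnd3, at -1.10 and -1.23), with a median of 1.25, and in those with 3 to 9, 0 of 5 were called.

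Among 12 genes that brake the cycle or mark quiescence, 2 were lower and 1 was higher. Klf2, a transcription factor of resting and recirculating T cells, stood at 314 CPM against 762 (log2 -1.28) and Foxp1, which enforces naive quiescence, at 454 against 984 (log2 -1.12). The antiproliferative gene Btg1 was at 939 against 1826 (log2 -0.96) and the kinase inhibitor gene Cdkn1b at 167 against 258 (log2 -0.63). Cdkn2c, an inhibitor of the D cyclin kinases, was higher, at 50.4 against 12.8 CPM (log2 1.98). It was likewise under 50 CPM without the shared barcodes, where its log2 ratio was 1.90. Foxp1 fell short of 2-fold without the deepest 5% (-0.92) and under TMM scaling. In the barcodes with 10 or more rule UMIs, 6 of 12 genes of this list were lower and 1 higher.

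The number of rule UMIs ordered much of this program. The bands described next were chosen after the data were seen, and depth rose along with them, from a median of 6706 UMIs at 0 rule UMIs to 29499.5 at 100 or more. Ccnb2 stood at 1.18 CPM in barcodes with 0 rule UMIs, 8.77 with 2, 11.1 with 3, 69.4 with 5 to 9, 285 with 10 to 29 and 356 with 100 or more. Hist1h1b went from 19.0 CPM at 0 to 44.5 at 3 and 144 at 10 to 29, and then to 1902 at 30 to 99 and 2976 at 100 or more. Hist1h1b thus stood far higher from 30 rule UMIs on, whereas Ccnb2 was near its top level from 10. Summed DNA synthesis genes were at 1171 CPM with 0 rule UMIs, 6633 with 30 to 99 and 5824 with 100 or more, and summed kinetochore and spindle genes at 846 and 12146 at the ends of the range. Between the barcodes just outside and just inside the rule there was little step, with Stmn1 at 63.7 (55.6 to 72.8) and 72.6 (59.7 to 87.4) CPM and Ccnb2 at 8.77 (5.92 to 12.5) and 11.1 (6.47 to 17.8).

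**Figure D3:**
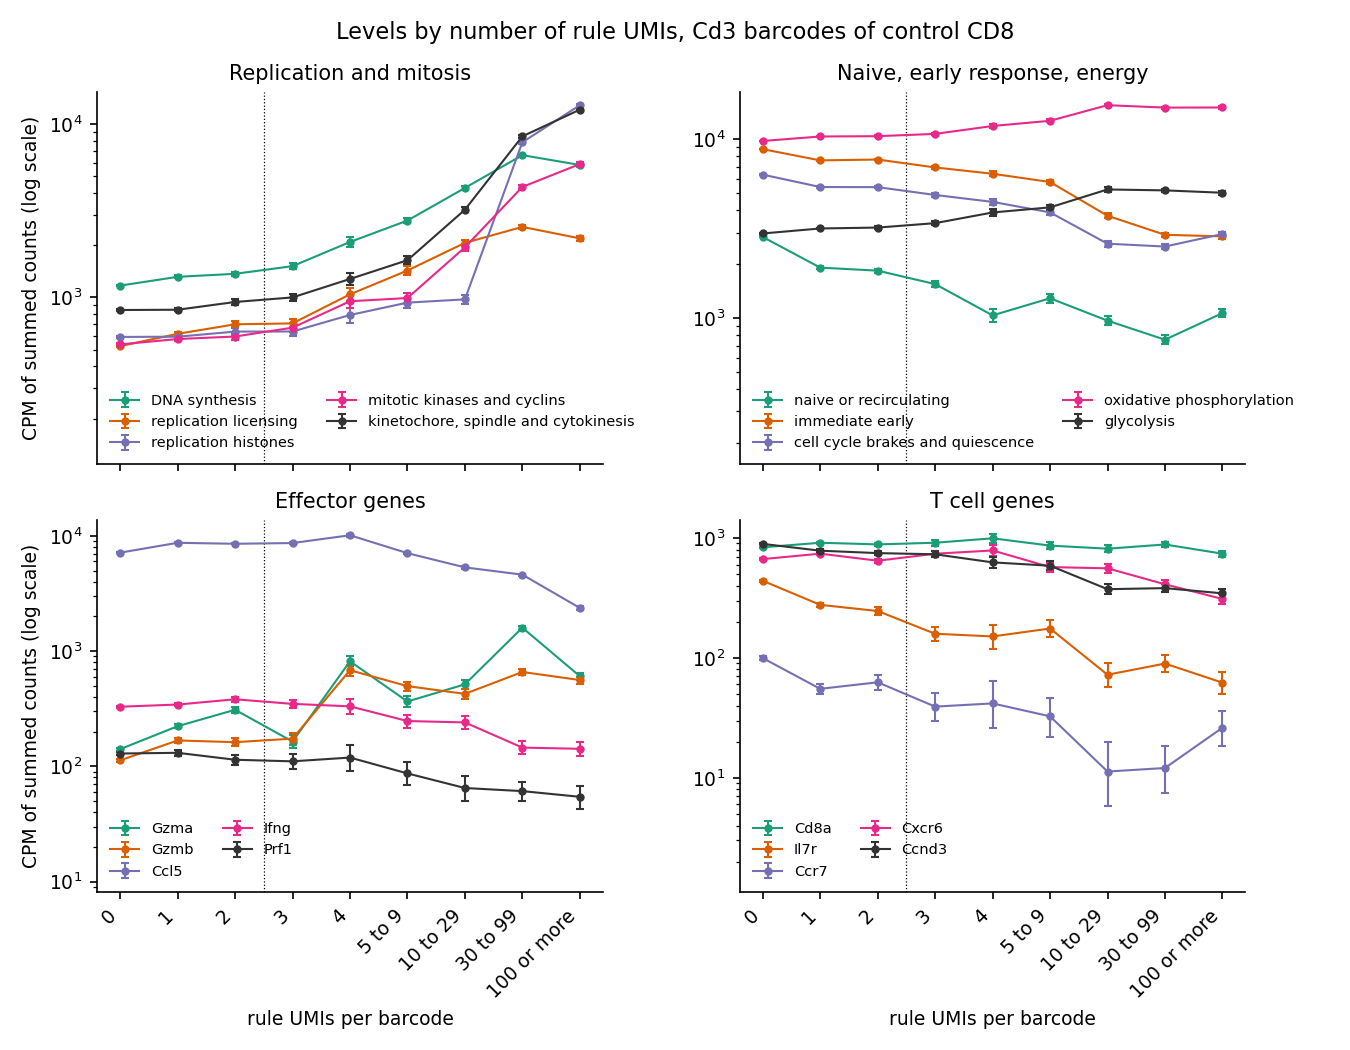
CPM of summed counts (vertical axes, log scale) by number of rule UMIs per barcode (horizontal axes) in the Cd3 barcodes of control CD8, for gene lists (upper panels) and single genes (lower panels), with 95% Poisson intervals as bars. The dotted line separates barcodes outside the rule (0 to 2) from the cycling barcodes (3 or more). Replication and mitosis lists are higher, and naive, early response and quiescence lists lower, at 10 or more rule UMIs than at 0, although not every list moves one way from each band to the next. The naive list is at 755 CPM with 30 to 99 rule UMIs and 1063 with 100 or more, and DNA synthesis at 6633 and 5824. Cd8a stays between 739 and 993 CPM, and Gzma and Gzmb move unevenly.

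The 387 barcodes with 3 to 9 rule UMIs were close to the other Cd3 barcodes in most genes. Compared alone, they had 21 of 4422 genes higher (0.475%) and 8 lower (0.181%), and 14 of the 51 measured genes of the 6 replication and mitosis lists were higher, with a median log2 ratio of 0.54. The 233 barcodes with 10 or more had 385 of 4735 genes higher (8.13%) and 288 lower (6.08%), and 137 of 143 genes of the 6 lists were higher, with a median of 3.26. Rrm2 stood at 36.5 CPM in the first set and 385 in the second, and Cdk1 at 18.9 and 238. These 2 sets also differed in depth, with medians of 8159 and 21813 UMIs. Among the deepest 5% of the library's barcodes lay 58 of the 387 and 157 of the 233. Of the 387, 9 recurred in another library, and of the 233, 41 did. The values of these 2 sets are given with all of those barcodes included, and their part in the values was not tested.

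Within single barcodes, replication content was measured as UMIs of the licensing and DNA synthesis lists, and mitosis content as UMIs of the mitotic kinase and kinetochore lists, each per 10000 retained UMIs. In the 233 barcodes with 10 or more rule UMIs the medians were 80.5 for replication and 118 for mitosis, against 16.3 and 13.1 in the other Cd3 barcodes. In the 387 barcodes with 3 to 9 they were 21.9 and 17.9. The 95th percentile of the other Cd3 barcodes was passed for replication or mitosis by 229 of the 233 (98.3%), by 150 of the 387 (38.8%) and by 8.98% of the others themselves. Over all 620 cycling barcodes the share was 61.1%, and for the 210 with 3 rule UMIs it was 25.2%. For most barcodes just inside the rule, then, neither content exceeded that of the top of the comparison group.

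**Figure D4:**
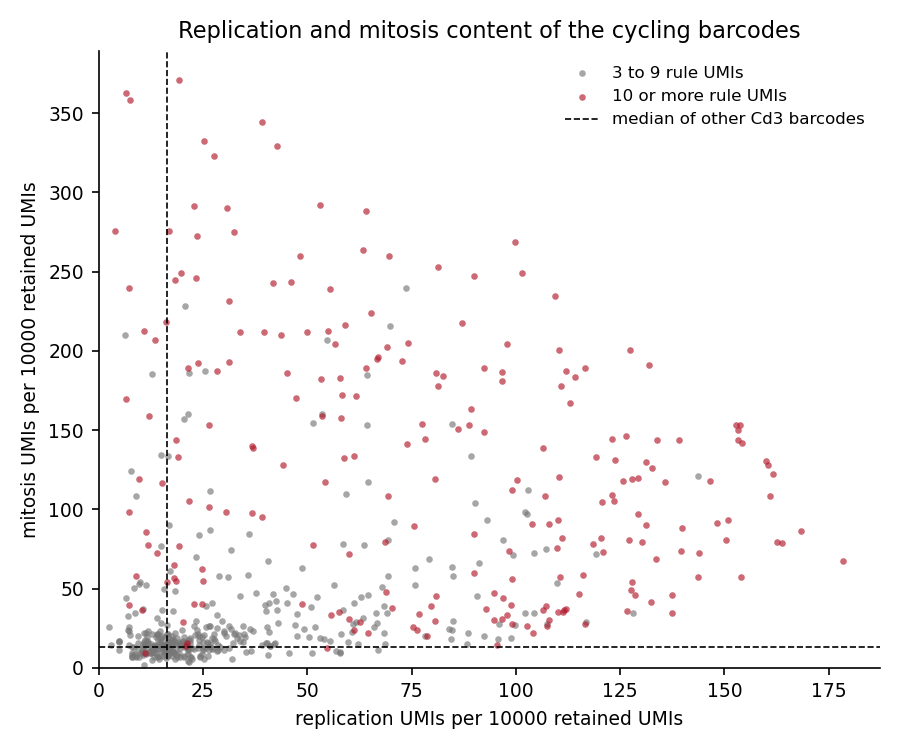
Replication UMIs (horizontal axis) and mitosis UMIs (vertical axis) per 10000 retained UMIs in the 620 cycling barcodes, with 1 point a barcode, red with 10 or more rule UMIs and grey with 3 to 9. Dashed lines are the medians of the other Cd3 barcodes, 16.3 and 13.1. Grey points crowd around the crossing of the lines, and red points spread along both axes with no gap between a replication arm and a mitosis arm.

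Replication and mitosis content varied on a continuum in the 233 barcodes. Mitosis UMIs outnumbered replication UMIs in 135, the reverse held in 97, and 1 was equal. The mitosis share of both contents together had a median of 60.1%. It exceeded 80% in 51 barcodes, was below 20% in 5 and lay between 40 and 60% in 51. These barcodes were chosen by rule genes that themselves went with these contents, Mki67, Birc5 and Top2a more with mitosis (rho 0.79, 0.75 and 0.72) and Pclaf more with replication (0.69, against 0.23 with mitosis), so the balance describes the barcodes chosen and not cycling cells in general. Across the 233 barcodes Spearman's rho was -0.24 between replication and mitosis content, 0.48 between histone and mitosis content and 0.35 between histone and replication content. The choice of barcodes also bears on these values, which describe cells of 1 library that share its depth and counting noise.

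Of 21 effector and cytotoxic genes at 50 CPM, 2 were higher and 0 lower over all cycling barcodes. Over all measured genes 5.06% were higher and 1.15% lower, so these counts alone say little about the list. The list median was -0.37, which became 0.04 without the deepest 5% and 0.01 at matched depth. In the barcodes with 10 or more rule UMIs, 3 of 22 were higher and 4 lower, against 8.13% and 6.08% of all measured genes. The 4 lower genes were Klrk1, Ccl4, Fasl and Prf1, at log2 ratios of -1.42 to -1.10. The 2 higher genes over all cycling barcodes were granzymes, the serine proteases that kill target cells. Gzma (chr13:113093825-113100981, minus strand) stood at 723 CPM (703 to 743) against 168, a log2 ratio of 2.10, and Gzmb (chr14:56258838-56262260, minus strand) at 482 (467 to 499) against 126, a log2 ratio of 1.93. Without the deepest 5% these ratios were 1.60 and 1.13, and at matched depth 1.76 and 1.50. Other products of cytotoxic cells were level or below 2-fold, with Gzmk at 212 against 166 CPM, Prf1, perforin, at 78.2 against 128, and Ifng, interferon gamma, at 228 against 336. Ccl5, a chemokine that is abundant in memory CD8 cells, was at 5848 against 7544 CPM, a log2 ratio of -0.37 that was 0.09 without the deepest 5%. Klrk1, the receptor NKG2D, had a log2 ratio of -0.98. Members of the list under 50 CPM in both groups were not counted, and among them Klrg1, a receptor of effector cells, was at 34.0 against 12.9 CPM (log2 1.40) and Cx3cr1, a chemokine receptor, at 42.1 against 19.4 (1.12).

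The granzyme sums rested on few barcodes. Gzma had 5187 UMIs in 143 of the 620 cycling barcodes. A single barcode held 932 of them (18.0%), and 10 barcodes held 61.8%. Gzmb had 3463 UMIs in 250 cycling barcodes, with 33.9% of them in the top 10. Among all Gzma-positive cycling barcodes the median was 3 UMIs. Across the rule bands Gzma had no steady order, at 164 CPM with 3 rule UMIs, 816 with 4, 365 with 5 to 9, 1598 with 30 to 99 and 606 with 100 or more.

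To compare detection at equal depth, each barcode was thinned to 1000 UMIs, which left 611 cycling and 8576 other barcodes and left out 9 and 489. Gzmb was then found in 15.4% of the cycling barcodes (12.6 to 18.5%) and 7.24% of the others (6.70 to 7.81%). Gzma was found in 8.84% (6.71 to 11.4%) and 4.27% (3.85 to 4.72%). Without thinning the shares were 40.3% and 17.9% for Gzmb and 23.1% and 9.16% for Gzma. The intervals of the groups did not overlap for either gene. No cell type known to lack granzymes was available in this sort. The 98 barcodes without a Cd3 UMI that reached 1000 UMIs (median 1319.5 UMIs) had a thinned share of 8.16% for Gzma (3.59 to 15.5%) and 5.10% for Gzmb (1.68 to 11.5%). The interval of the cycling barcodes overlapped that of the barcodes without Cd3 for Gzma and lay above it for Gzmb. The barcodes without Cd3 had Cd8a in 40.8% after thinning, against 45.3% of the other Cd3 barcodes, and Ccl5 in 67.3%. They held CD8 T cell transcripts and so cannot give a background share for granzymes.

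Genes of naive or recirculating T cells were lower. Of 9 such genes at 50 CPM, 6 were lower and 0 higher, with a median log2 ratio of -1.24. Il7r (chr15:9505788-9530176, minus strand), the receptor for the survival cytokine IL-7, stood at 112 CPM (104 to 120) against 396, and the lymph node homing receptor gene Ccr7 at 25.2 against 88.8, both at -1.82. Lef1 and Bach2, transcription factors of naive and memory cells, were each at -1.38, and Satb1, a chromatin organiser, was at -1.12. S1pr1, Dapl1 and Tcf7 were at -0.94, -0.80 and -0.78. The direction held without the deepest 5% (6 of 9 lower, median -1.35), at matched depth (7 of 9, -1.51), without shared barcodes (6 of 9, -1.36) and under TMM scaling (5 of 9, -1.11).

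The naive genes differed in the barcodes with many and with few rule UMIs. In those with 10 or more, 9 of 9 were lower. In those with 3 to 9, 5 of the 8 lower genes of the whole transcriptome belonged to this list, whose median there was -1.04. Il7r declined from 439 CPM at 0 rule UMIs to 277 at 1, 246 at 2, 159 at 3 and 62.1 at 100 or more, so part of the decline lay outside the rule. After thinning, Il7r was found in 7.86% of cycling barcodes (5.85 to 10.3%) and 18.8% of others (17.9 to 19.6%), and Ccr7 in 1.64% (0.788 to 2.99%) and 5.03% (4.57 to 5.51%). Unthinned, Il7r was found in 31.0% and 40.9% and Ccr7 in 11.6% and 18.5%. Barcodes without a Cd3 UMI had Il7r in 17.3% and Ccr7 in 5.10% after thinning.

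Tissue-residency, inhibitory receptor and activation lists had no member past 2-fold at 50 CPM. The 7 residency genes had a median of -0.36, with Cxcr6, a chemokine receptor of resident cells, at 530 against 678 CPM and Cd69, which blocks tissue exit, at 380 against 602. The 6 coinhibitory genes had a median of -0.06 (0.06 under TMM scaling and 0.14 without the deepest 5%). Pdcd1, which encodes PD-1, stood at 74.3 against 62.7 CPM, and Tox, a transcription factor of chronically stimulated CD8 cells, at 623 against 624. The 11 activation genes had a median of -0.22 and a range of -0.45 to 0.26.

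Over all cycling barcodes, energy metabolism genes differed by less than 2-fold with 2 exceptions. In the barcodes with 10 or more rule UMIs, 3 of 30 oxidative phosphorylation genes (Cycs at 1.08, and Cox5b and Cox5a just past 2-fold) and 4 of 14 glycolysis genes were higher. Of all genes measured there 8.13% were higher, and the oxidative phosphorylation count was near that share. Over all cycling barcodes, all but 1 of the 30 oxidative phosphorylation genes had a log2 ratio above 0, with a median of 0.46, but none reached 2-fold. Cycs, cytochrome c, was at 0.83, Cox5a at 0.78 and the exception, Uqcrh, at -0.05. Of 14 glycolysis genes, 2 were higher, Gapdh (1576 against 753 CPM) and Tpi1 (log2 1.02), and neither reached 2-fold without the shared barcodes. Ldha, lactate dehydrogenase, was at 611 against 351 CPM. Of 17 protein folding and ribosome making genes, 2 were higher, Ran (853 against 321 CPM), the GTPase of nuclear transport and spindle assembly, and its binding partner Ranbp1 (log2 1.07), both under 2-fold without the deepest 5%.

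Immediate early genes were below the other barcodes. Of 10, 2 were lower, Jun (777 against 1774 CPM) and Fos (636 against 1351), both subunits of the AP-1 factor, and all 10 had a log2 ratio below 0, with a median of -0.88. They encode factors made within minutes of a stimulus. Neither passed 2-fold without the deepest 5% (-0.78 and -0.71), where 0 of 10 were lower. Heat shock genes followed with 2 of 9 lower, the near-identical pair Hspa1a (-1.02) and Hspa1b (-1.08), whose UMIs cannot be assigned with certainty. Neither was past 2-fold without shared barcodes (-0.81 and -0.88). In the barcodes with 10 or more rule UMIs, 8 of 10 immediate early genes and 5 of 9 heat shock genes were lower.

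Interferon-stimulated genes did not differ by 2-fold, with 0 of 7 called and a median of -0.10 that turned to 0.03 under TMM scaling and was also above 0 without the deepest 5% (0.24). Ifi27l2a was at 896 against 566 CPM. In the apoptosis and p53 target list, Bcl2, the survival factor downstream of IL-7 signals, was lower at 237 against 518 CPM (log2 -1.13). Bax, a promoter of cell death, and Mdm2, which restrains p53, had log2 ratios of 0.08 and -0.06.

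Outside the lists, the 15 genes with the largest ratios at 100 CPM or more included the histone gene Hist1h2an (log2 4.12), Fbxo5 (3.42), which inhibits the anaphase-promoting complex, the centromere gene Cenpp (3.38), the recombination gene Rad51b (3.04), Diaph3 (2.79), which assembles actin in cytokinesis, and Tipin (2.15), of the replication fork. Lockd, a long noncoding RNA next to Cdkn1b, was at 153 against 29.9 CPM (2.36). Lgals1 (chr15:78926725-78930465, plus strand), galectin-1, a lectin of activated T cells, stood at 1529 against 528 CPM (1.53) and was found in 552 of the 620 barcodes, with 11.0% of its UMIs in the top 10. The remainder were Gm43305, Hist1h3e, Tmpo, Cbx5, Nsd2, Fkbp2 and Alyref, at 1.44 to 2.36.

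The 10 genes outside the lists with the smallest ratios at 100 CPM or more ran from Cmah (70.4 against 188 CPM, log2 -1.41) to Zbtb20 (197 against 419, -1.08). Cmah makes a sialic acid and St6gal1 (-1.24) attaches sialic acid to glycans. Klf3 (-1.25) is a Krüppel-like repressor, and Tsc22d3 (-1.23) encodes the glucocorticoid-induced leucine zipper. The rest were Gm12840, P4ha1, Actn1, Rgcc and Ssbp2, at -1.37 to -1.09. Without the deepest 5% of barcodes, Klf3 (-0.99), Tsc22d3 (-0.88), Rgcc (-0.69), Ssbp2 (-0.93) and Zbtb20 (-0.83) were under 2-fold.

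T cell receptor beta segments were counted in the 261 cycling barcodes in which exactly 1 Trbv segment was found. Trbv3 was found in 80 (30.7%, 25.1 to 36.6%), against 639 of 2592 such barcodes among the others (24.7%, 23.0 to 26.4%). Trbv12-2 followed with 11.9% against 14.0%, Trbv29 with 7.66% (4.74 to 11.6%) against 4.36% (3.61 to 5.22%), Trbv12-1 with 7.66% against 6.10% and Trbv2 with 6.51% against 6.10%. For none of these 5 segments did the intervals separate. In all, 21 of 35 segments occurred in these cycling barcodes, so they did not carry a single segment. At least 2 segments were found in 55 cycling barcodes (8.87%) and in 345 others (3.81%), and in 33 of the 233 with 10 or more rule UMIs (14.2%). The part of depth and doublets in these shares was not tested.

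Markers of other cell types were low in both groups, and their part in the results was not tested. Summed B cell markers stood at 127 CPM against 185, mostly Ighm (110 against 164), with Ms4a1 at 0. Myeloid markers were at 147 against 126, carried by Cst3 (117 against 97.9), with Lyz2 and Adgre1 at 0. NK markers were at 55.9 against 62.2, with Ncr1 at 0.279, and CD4 T cell markers at 24.4 against 45.7, with Foxp3 at 0. Thymocyte markers were at 978 against 1288, nearly all Themis, which mature T cells also express, while Dntt and Ptcra were at 0.279 and 0.418. Plasma cell markers were at 46.5 against 40.1, all of it Xbp1, and endothelial markers at 63.5 against 106, nearly all Pecam1. Gamma delta T cell, erythroid, tubule and fibroblast markers summed to 2.51, 2.09, 3.07 and 0.279 CPM in the cycling barcodes. Rag1 and Rag2 were not among the features retained.

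The same rule was applied to the other libraries. Cycling barcodes made up 5.14% of Cd3 barcodes in control CD4 (489, 4.70 to 5.60%) and 4.34% in control DN (404, 3.93 to 4.77%), so the share in control CD8 (6.40%) was above both beyond counting error. With 10 or more rule UMIs the shares were 2.41% in control CD8 (2.11 to 2.73%), 2.05% in control CD4 (1.77 to 2.35%) and 1.68% in control DN (1.42 to 1.96%), and the intervals of CD8 and CD4 overlapped. In IR CD8 the share was 1.28% (82, 1.02 to 1.58%), and in IR CD4 and IR DN 0.592% (61) and 0.127% (5). The IR libraries were shallower, with a median of 1819 UMIs in the other Cd3 barcodes of IR CD8 against 6817, and a rule of 3 UMIs is met less easily at low depth. When every barcode was thinned to 1000 UMIs, the shares were 1.76% in control CD8 (162 of 9187, 1.50 to 2.05%), 1.06% in control CD4 (0.861 to 1.28%), 0.668% in control DN (0.512 to 0.855%) and 0.432% in IR CD8 (0.285 to 0.628%). The thinned shares in IR CD4 and IR DN were 0.156% and 0.0550%. Ribosomal protein genes took a median of 43.8% of UMIs in the other Cd3 barcodes of IR CD8, against 21.4% in control CD8. Thinning to equal UMIs therefore left fewer UMIs for other genes in IR CD8. The order of CD8, CD4 and DN in control was the same with all UMIs and after thinning. Control and IR libraries were also processed with different Cell Ranger versions, which cannot be told apart from the condition, and no difference between mice can be estimated from 1 library each.

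**Figure D5:**
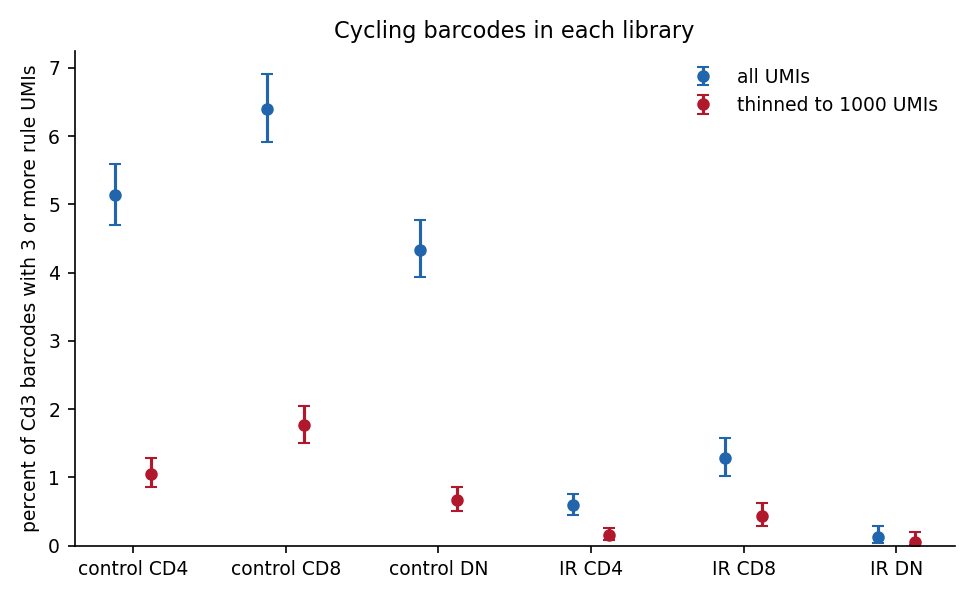
Share of Cd3 barcodes that meet the rule (vertical axis, percent) in each of the 6 libraries (horizontal axis), with all UMIs (blue) and with every barcode thinned to 1000 UMIs (red). Bars are 95% exact binomial intervals. Control CD8 is highest in both, at 6.40% and 1.76%, and the IR libraries lie at or below 1.28%.

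Side by side, the cycle genes were higher in the cycling barcodes of every library with 50 or more of them, and the granzymes varied. Rrm2 had log2 ratios of 5.15 in control CD8, 5.42 in control CD4, 5.62 in control DN, 5.74 in IR CD4 and 6.38 in IR CD8. Gzmb had 1.93 in control CD8 and 2.10 in IR CD8, where its level was 1045 against 245 CPM, but -0.02 in control CD4 and 0.19 in control DN. Gzma had 2.10, -1.89, 0.94, 1.56 and 2.13 in the order used for Rrm2, with both groups of control CD4 at 12.3 CPM or less. Il7r was below the other barcodes throughout, at -1.82, -1.45, -1.45, -2.54 and -3.42. Lgals1 was above them, at 1.53, 0.92, 0.72, 1.82 and 2.45. Pdcd1, near level in control CD8 at 0.24, stood at 1.22 in control CD4, 1.48 in control DN, 1.63 in IR CD4 and 0.83 in IR CD8. The naive list had medians of -1.24 in control CD8, -0.95 in control CD4, -0.83 in control DN, -1.99 in IR CD4 and -2.62 in IR CD8. The differences between libraries in these ratios were not tested.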

How the data were processed

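The 6 deposited matrices (1 library per group, grouped by sample title) hold raw UMI counts per gene and barcode that the authors made from 10x Genomics 3' libraries (v3.1 chemistry) on mm10, filtered to cell barcodes and not normalized. Per the file headers, Cell Ranger was at version 5.0.1 in the 3 control and at 6.0.1 in the 3 IR matrices, and the submitters' processing notes name 6.0.1. The study's methods give default settings, without naming how intronic reads or strand were handled. Depth was 76054125 UMIs in control CD8 and 7787822 to 89497612 over the 6 libraries.

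Cycling barcodes were chosen by the rule in the report, with no clustering. No doublet caller was run. Mitochondrial and ribosomal protein genes and Malat1 (105 features) and features found in fewer than 5 barcodes were removed, which left 17498 of 32285. Counts were summed over barcodes and scaled to CPM of retained UMIs (7177234 in cycling and 47861775 in other barcodes). In ratios, counts under 3 were raised to 3 (0.418 and 0.0627 CPM). Cells are not replicates, so no test was run. Intervals are exact Poisson (sums) and Clopper-Pearson (shares), and cover counting error only. Named genes were the rule and Cd3 genes, members of 34 gene lists (459 genes) with the most UMIs or past 2-fold, the 15 highest and 10 lowest outside the lists at 100 CPM or more, and the 5 most frequent Trbv segments. The exceptions of each list were also named, after their values were seen. Results that need certain genes are left out here. The members and lists were chosen with earlier results of these data known. Coordinates are from GENCODE M21 (32235 features matched) and promoters from RefSeq GRCm38.p6, matched by symbol.

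Alternatives were 2 or 5 rule UMIs, a mitochondrial limit of 10%, 2 Cd3 UMIs, leaving out the deepest 5% or shared barcodes, matched depth, TMM scaling (edgeR 4.0.16, R 4.3.3), removed features kept, thinning to 1000 or 500 UMIs, a mean over barcodes, and a minimum of 10, 100 or no CPM. Splits at 10 rule UMIs were added after the data were seen. Scripts were tested on simulated data and used Python 3.11.15, numpy 2.4.6, scipy 1.17.1, pandas 2.3.3 and matplotlib 3.10.9.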

Additional observations from a re-analysis of the deposited data

Results flagged for a closer look

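Outside the barcodes used, the 1200 barcodes of the control CD8 library left out by the gene, mitochondrial or Cd3 limit held 204 rule UMIs, against 16470 in the 620 cycling barcodes. These barcodes entered no comparison of expression levels. Those with 500 genes or more and no Cd3 UMI were used only for shares of barcodes with Gzma, Gzmb, Cd8a, Ccl5, Il7r or Ccr7. Of the 631 barcodes of the library with 3 or more rule UMIs, 11 were left out, 7 of them for fewer than 500 genes and 4 for lack of a Cd3 UMI.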

How the results depend on the processing

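The number of cycling barcodes was 1135 with 2 rule UMIs, 341 with 5 and 233 with 10, and 405 without the deepest 5% of barcodes. The number of genes called was 234 higher and 53 lower in the report. Each alternative gave its own total, which was 148 higher and 13 lower with 2 rule UMIs, 167 lower with 5 rule UMIs, 110 higher and 27 lower without the deepest 5%, 27 lower under TMM scaling, 31 lower with the removed features kept, 142 lower after thinning to 500 UMIs, and 20 lower as a mean over barcodes. With a minimum of 10 CPM 466 were higher and 169 lower, with 100 CPM 120 and 28, and with none 2807 and 791, the last including genes of a few UMIs. Splits added after the data were seen gave 385 higher and 288 lower for 10 or more rule UMIs and 21 and 8 for 3 to 9. The Gzmb share moved with depth by construction, to 40.3% of cycling and 17.9% of other barcodes without thinning and 11.5% and 3.98% at 500 UMIs. Of 336 log2 ratios (24 genes under 14 alternatives), 0 called ratios changed sign, and 237 moved beyond the counting interval of the ratio. The cause was not tested where an alternative changed barcodes as well as depth.

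No paired analysis was possible because each group had 1 library and the labels carry no replicate numbers. No sample was left out in turn, for the same reason. Counting error limits the 42 cycling barcodes under 2000 UMIs, and genes under 0.418 CPM are at or below the floor of 3 counts in the cycling barcodes.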
